A study of Mus musculus with 8 samples.

Results

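The CCAAT/enhancer-binding protein (C/EBP) transcription factors were examined in RNA-Seq values of blood monocyte (MC) subsets from control (CT) and diabetic mice. The genes were chosen by symbol and not by a rule on measured values, but with earlier results of these data known. Of these genes 6 of 6 (Cebpa, Cebpb, Cebpd, Cebpe, Cebpg and Cebpz) were found among the 16486 rows of the deposited table. Cebpa and Cebpd were more than 4-fold higher in Ly6C-high than in Ly6C-low MCs of CT mice, and both passed the test. In the same comparison Cebpe (4.22-fold), Cebpg (1.82-fold) and Cebpb (1.57-fold) had higher mean values in Ly6C-high MCs but were not called. Cebpz, which is not a relative of the others in structure, was not called either and had a lower mean in Ly6C-high MCs. None of the 6 genes passed the test of diabetic against CT MCs, but neither did any other of the 16486 rows, so this does not show that the genes are unchanged in diabetes.

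Bulk RNA-Seq compared Ly6C-high MCs, the classical subset, with Ly6C-low MCs, the non-classical subset, in 8 libraries. Each subset had 2 libraries from CT, 1 from T1DM and 1 from T2DM mice. CT mice were wild-type C57/BL6 animals. T1DM mice were C57/BL6 mice that had received streptozotocin (STZ), which kills the beta cells of the pancreas, by intraperitoneal injection at 50 mg/kg per day on 5 days, begun when they were 8 weeks old. As T2DM mice served db/db mice, homozygous for a leptin receptor mutation that makes them obese and diabetic, and no lean control of that line was analysed here. All groups were male, ate normal chow and were killed for blood at 20 to 22 weeks of age. MCs were sorted as CD11b+ Ly6G- cells with high or low Ly6C, and RNA of 5 mice per group was pooled and sequenced in duplicate. The 2 CT libraries of a subset may thus be technical repeats of 1 pool, and p-values measure only the spread between these libraries. The paper names 2 datasets per group, but each subset has only 1 set of values per diabetic model here. Whether that set is 1 of the duplicates or both merged is not stated. The sequencer was a NextSeq 500 for CT and a HiSeq 4000 for both diabetic models, and the effects of sequencer and of diabetes cannot be told apart.

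C/EBP proteins are basic leucine zipper factors that pair with each other and bind DNA sites of the CCAAT enhancer type. C/EBPα commits progenitors to the granulocyte and monocyte lineages, C/EBPβ and C/EBPδ are known for inflammatory and acute phase genes, and C/EBPε drives the late granulocyte programme, including secondary granule proteins. C/EBPγ has no activation domain of its own and works through its partners, such as ATF4. Cebpz encodes a CCAAT-binding protein of another family that acts in the nucleolus in ribosome assembly. In blood MCs, the Ly6C-high cells leave the marrow first and many of them later convert to Ly6C-low cells, a step that involves C/EBPβ and the nuclear receptor Nr4a1.

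In the GENCODE M21 annotation of GRCm38, the build that the label mm10 also names, Cebpa lies at chr7:35119293-35121928 on the plus strand and Cebpg at chr7:35046422-35056573 on the minus strand, with 62.7 kb between them. Cebpb, a gene of 1 exon, lies at chr2:167688915-167690418 on the plus strand. Cebpd lies at chr16:15887286-15891031 on the plus strand with a coding transcript of 1 exon, and Cebpe at chr14:54710360-54712174 on the minus strand with 2 exons. Cebpz lies at chr17:78919006-78937066 on the minus strand with 16 exons. The counting is not stated to use strand, so reads from sequence that a gene shares with an opposite-strand partner cannot be told apart. Cebpb overlaps Tmem189 on the opposite strand over 908 bases, Cebpd overlaps Spidr over 1808 bases and Cebpz overlaps Cebpzos over 1301 bases. The share of 31-base sequences in common with transcripts of other genes was 19.6% in Cebpb, 14.2% in Cebpd, 4.60% in Cebpz, 1.44% in Cebpg, 0.835% in Cebpa and 0% in Cebpe.

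The RefSeq promoter table of GRCm38.p6 held 3 of the 6 genes (Cebpa, Cebpb and Cebpg) and not Cebpd, Cebpe or Cebpz. Their promoters are shown because 2 of them, Cebpa and Cebpg, are neighbours with subset differences of unlike size, and because Cebpb lay below both CT libraries of its subset in every diabetic library. The 250 bases before the RefSeq start of each gene are given 5′ to 3′ on the gene's own strand, for Cebpa from chr7:35119043-35119292 (plus), for Cebpb from chr2:167688665-167688914 (plus) and for Cebpg from chr7:35056567-35056816 (minus). Capitals mark every match, on either strand, to TATAA (TATA box), TGACG (core of a cAMP response element) or CCAAT. The motif TTNNGCAA, a form of the C/EBP consensus, was searched too and had 0 matches in these windows.
Cebpa: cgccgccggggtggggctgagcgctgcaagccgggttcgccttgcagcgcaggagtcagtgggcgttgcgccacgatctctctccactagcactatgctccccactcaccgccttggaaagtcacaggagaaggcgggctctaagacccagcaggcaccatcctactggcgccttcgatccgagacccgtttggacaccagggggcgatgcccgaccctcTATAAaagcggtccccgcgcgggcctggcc
Cebpb: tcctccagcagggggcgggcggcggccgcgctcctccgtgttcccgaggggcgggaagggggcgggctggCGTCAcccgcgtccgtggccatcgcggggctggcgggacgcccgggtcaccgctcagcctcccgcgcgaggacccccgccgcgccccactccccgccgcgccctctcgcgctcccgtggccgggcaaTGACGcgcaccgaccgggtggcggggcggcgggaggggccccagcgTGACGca
Cebpg: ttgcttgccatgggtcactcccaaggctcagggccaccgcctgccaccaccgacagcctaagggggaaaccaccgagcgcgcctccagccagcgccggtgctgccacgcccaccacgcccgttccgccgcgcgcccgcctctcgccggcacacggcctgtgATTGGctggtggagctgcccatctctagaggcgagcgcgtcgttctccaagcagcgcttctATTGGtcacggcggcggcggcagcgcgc

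The Cebpa window holds 1 TATAA at -30 from the gene's start, the Cebpb window 3 TGACG matches at -180, -53 and -7, and the Cebpg window 2 CCAAT matches, read as ATTGG, at -89 and -28. Over 27025 RefSeq promoters of the same length, 23.5% held TATAA, 17.9% TGACG, 34.5% CCAAT and 9.55% TTNNGCAA on either strand. The windows are rich in G and C, with 66.4% in Cebpa, 81.6% in Cebpb and 70.8% in Cebpg, against a median of 52.0% over all promoters. A match is a string of letters and no measured binding, and no match says only that these letters are not in this window.

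Expression is given as deposited, on a log2 scale, so a difference of 1 is a 2-fold difference. The table holds no counts, the depth behind single values is unknown, and levels are not compared between genes, since it is not stated whether the values are per gene length. The 2 CT libraries of a subset had a correlation of 0.968 across genes in each subset, and 2279 genes in CT Ly6C-high and 1651 in CT Ly6C-low MCs differed by more than 1 between the 2. The subset labels were checked against markers. All 9 classical MC markers had a positive pooled log2FC and 8 passed the test, led by Vcan at 6.40 ± 0.28 (SE), whereas 5 of 10 nonclassical MC markers were lower in Ly6C-high MCs, led by Cd36 at -2.80 ± 0.22 (SE). Nr4a1, a defining gene of Ly6C-low MCs, did not pass the test between the subsets (pooled log2FC -0.44 ± 0.23, adjusted p = 0.179). Of the 10 nonclassical markers 1, Cx3cr1, went the other way over 8 libraries, at 0.60 ± 0.17 (SE), and was not called. In CT MCs 3 of the 10 had a positive log2FC, with Cx3cr1 at 0.83 ± 0.04 (SE). Markers of other cells also moved with the subset. All 10 B cell markers were detected, and the sum of their linear values was 267 to 522 in the Ly6C-high and 4116 to 5170 in the Ly6C-low libraries. The 10 NK cell markers summed to 26.1 to 116 and to 160 to 907 in the same order. In bulk RNA, fewer cells of a type and less RNA per cell cannot be told apart, and the part of B and NK cell RNA in the C/EBP differences below was not tested.

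**Figure D1:**
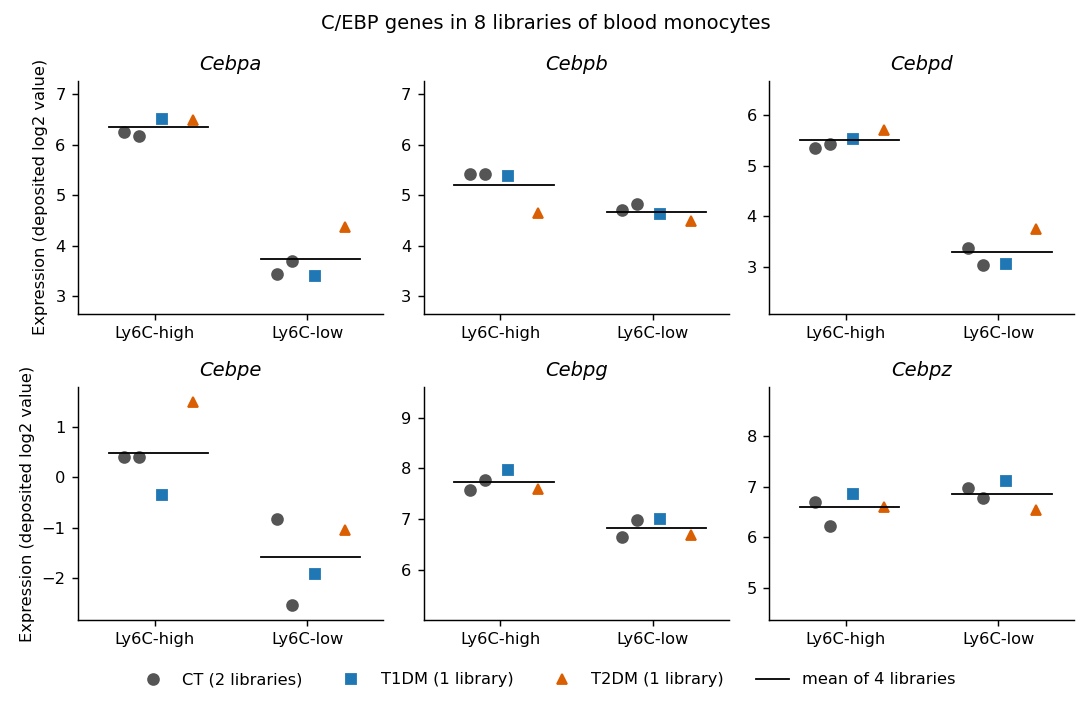
Deposited log2 expression of the 6 C/EBP genes (y axis, log2 scale, the same span in each panel) in each of the 8 libraries by subset (x axis), with grey circles for CT, blue squares for T1DM, orange triangles for T2DM and a line at the mean of 4 libraries. The 4 Ly6C-high libraries sit above the 4 Ly6C-low libraries for Cebpa, Cebpd, Cebpe and Cebpg, and the subsets overlap for Cebpb and Cebpz.

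Cebpa, the factor of myeloid commitment, read 6.25 and 6.17 (CT), 6.51 (T1DM) and 6.48 (T2DM) in Ly6C-high MCs. In Ly6C-low MCs it read 3.45 and 3.71 (CT), 3.40 (T1DM) and 4.38 (T2DM). On the linear scale the CT values were 76.1 and 72.1 in Ly6C-high and 10.9 and 13.1 in Ly6C-low MCs. All 4 Ly6C-high libraries were alike and stood clear of the Ly6C-low libraries, with 1.79 between the lowest of the former and the highest of the latter. Within Ly6C-high MCs the T1DM library was 0.27 and the T2DM library 0.23 above the higher CT library, and within Ly6C-low MCs the T1DM library was 0.05 below the lower CT library, less than the gap of 0.26 between the CT libraries. The CT means were 6.21 ± 0.056 (SD, n = 2) and 3.58 ± 0.18 (SD, n = 2), a log2FC of 2.63 ± 0.14 (SE, 95% interval 2.22 to 3.05) or 6.19-fold, with an adjusted p of 0.00591 in limma. Over all 8 libraries with mouse group as covariate, the pooled log2FC was 2.62 ± 0.17 (SE) with an adjusted p of 1.2e-05.

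Cebpd, a factor of the inflammatory and acute phase response, was also higher in every Ly6C-high library. Its Ly6C-high values were 5.34 and 5.42 (CT), 5.53 (T1DM) and 5.71 (T2DM), and its Ly6C-low values 3.37 and 3.04 (CT), 3.06 (T1DM) and 3.74 (T2DM). The lowest Ly6C-high library was 1.60 above the highest Ly6C-low library, which for both Cebpd and Cebpa was the T2DM library. The log2FC in CT MCs was 2.18 ± 0.17 (SE), 4.52-fold, with an adjusted p of 0.0097 in limma, and the pooled log2FC was 2.20 ± 0.16 (SE) with an adjusted p of 1.8e-05. Spidr, the DNA repair gene on the opposite strand, read 5.02 to 5.63 in Ly6C-high and 4.89 to 5.04 in Ly6C-low MCs, so that its subsets overlapped.

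Cebpe, the granulocyte maturation factor, had small linear values and the widest range of the 6 genes, 4.01 (log2) over 8 libraries. Its Ly6C-high values were 0.39 and 0.40 (CT), -0.35 (T1DM) and 1.49 (T2DM), and its Ly6C-low values -0.83 and -2.53 (CT), -1.92 (T1DM) and -1.04 (T2DM). The subsets did not overlap, by 0.48, although the 2 CT Ly6C-low libraries alone differed by 1.70. In CT MCs the log2FC of 2.08 ± 0.68 (SE, 95% interval 0.10 to 4.06) did not pass, with an adjusted p of 0.1225 in limma. Over 8 libraries the log2FC of 2.07 ± 0.47 (SE) passed with an adjusted p of 0.00935, but 7 of 10 alternatives lost this call. Over the 10 alternatives the adjusted p ran from 0.00244 to 0.0419 and the log2FC from 0.85, with 1 added to its linear values of 0.173 to 2.80, up to 2.58.

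Cebpg and Cebpb, the partner of ATF4 and the factor tied to Ly6C-low conversion, had smaller differences. In Ly6C-high MCs Cebpg read 7.58 and 7.77 (CT), 7.98 (T1DM) and 7.59 (T2DM), and in Ly6C-low MCs 6.64 and 6.99 (CT), 7.00 (T1DM) and 6.69 (T2DM). The subsets stayed 0.58 apart. Its pooled log2FC of 0.90 ± 0.10 (SE) had an adjusted p of 0.000251 in limma but stayed under the 2-fold limit for a call, as did the log2FC of 0.86 ± 0.16 (SE, adjusted p = 0.0407) in CT MCs. Cebpb read 5.41 and 5.42 (CT) and 5.37 (T1DM) in Ly6C-high MCs but 4.65 in their T2DM library, against 4.71 and 4.82 (CT), 4.62 (T1DM) and 4.50 (T2DM) in Ly6C-low MCs. Through that T2DM library the subsets overlapped by 0.18, and the log2FC of 0.65 ± 0.11 (SE, adjusted p = 0.0329) in CT and 0.55 ± 0.14 (SE, adjusted p = 0.0181) over 8 libraries were not called. Tmem189, on the opposite strand from Cebpb, read 5.14 to 5.87 in Ly6C-high and 4.60 to 4.99 in Ly6C-low MCs. The part of shared reads in the Cebpb difference was not tested.

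For Cebpz, the ribosome assembly gene, the Ly6C-high libraries read 6.69 and 6.23 (CT), 6.85 (T1DM) and 6.59 (T2DM), and the Ly6C-low libraries 6.97 and 6.78 (CT), 7.10 (T1DM) and 6.54 (T2DM). The subsets overlapped by 0.88, and its pooled log2FC of -0.26 ± 0.14 (SE, 95% interval -0.57 to 0.05) had an adjusted p of 0.18 in limma. Its interval leaves room for a difference of up to 0.57 in favour of Ly6C-low MCs.

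**Figure D2:**
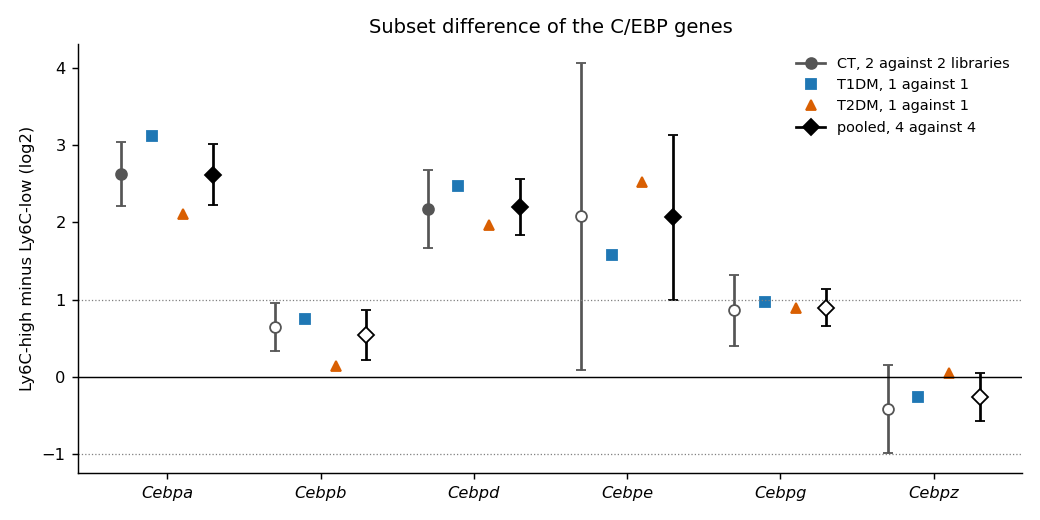
Ly6C-high minus Ly6C-low difference (y axis, log2) of the 6 C/EBP genes in CT mice (circles, 95% interval), T1DM and T2DM mice (square and triangle, 1 library against 1, no interval) and pooled over 8 libraries (diamonds, 95% interval), with filled circles and diamonds for called genes and dotted lines at 2-fold. Cebpa, Cebpd and Cebpe lie above 1 in every mouse group, and Cebpe has the widest interval.

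A call needed an adjusted p under 0.01 and an absolute log2FC above 1. In CT MCs 2 of 6 C/EBP genes were called, both higher in Ly6C-high MCs, where 3.52% of all genes were called, 2.1% as higher and 1.43% as lower. Over 8 libraries 3 of 6 were called, again higher in Ly6C-high MCs, against 12.1% of all genes, 5.37% as higher and 6.76% as lower. For 4 of 6 genes all Ly6C-high libraries lay above all Ly6C-low libraries, which held for 16.4% of all genes, and for 0 of 6 all lay below, which held for 16.3%. The calls of Cebpa and Cebpd over 8 libraries held in 11 of 11 alternatives each. The alternatives, here and for CT MCs alone, include a looser limit on the adjusted p, which cannot remove a call. The calls in CT MCs alone held in 4 of 10 and were lost whenever any 1 CT library was left out, with a log2FC of 2.50 to 2.76 for Cebpa and 2.02 to 2.34 for Cebpd over the alternatives.

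In the diabetic mice the subset difference rests on 1 library against 1 and has no test. Cebpa was 3.12 higher in Ly6C-high than in Ly6C-low MCs of T1DM mice and 2.10 higher in T2DM mice (log2), and Cebpd was 2.47 and 1.97 higher. Cebpe was 1.58 higher in T1DM and 2.53 higher in T2DM mice. With 1 added on the linear scale the T1DM difference of Cebpe was 0.50. In the deposited values these 3 genes were past 2-fold in both models, where 27.9% of all genes in T1DM (11.0% as higher) and 29.1% in T2DM (11.3% as higher) were past 2-fold. Cebpg differed by 0.98 in T1DM and 0.90 in T2DM mice, close to its CT value. Cebpb differed by 0.75 in T1DM and 0.15 in T2DM mice, and Cebpz by -0.25 and 0.05.

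Next, diabetic MCs were compared with CT MCs of the same subset. In Ly6C-high MCs both diabetic libraries lay above both CT libraries for Cebpa and Cebpd and below both for Cebpb. That is 3 of 6 genes, against 30.8% of all genes with both diabetic libraries outside the CT pair on 1 side. In Ly6C-low MCs only Cebpb was so placed, below both, which is 1 of 6 against 31.1% of all genes. Cebpb thus lay below the CT libraries in both models and both subsets, by unlike amounts. The T1DM library was 0.04 and 0.15 and the T2DM library 0.77 and 0.27 below the CT mean in Ly6C-high and Ly6C-low MCs.

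**Figure D3:**
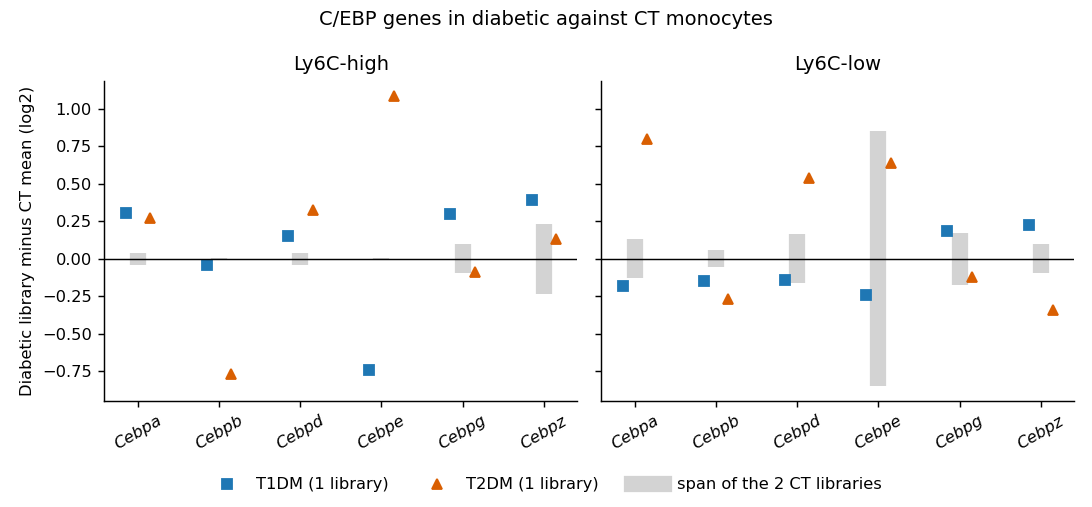
Log2 difference of each diabetic library from the mean of the 2 CT libraries of the same subset (y axis) for the 6 C/EBP genes, with blue squares for T1DM, orange triangles for T2DM and grey bars for the span of the 2 CT values. In Ly6C-high MCs the T1DM and T2DM points of Cebpe lie on opposite sides of 0, and in Ly6C-low MCs the T2DM points of Cebpa and Cebpd lie above the CT span.

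None of these differences passed limma when T1DM and T2DM were joined as diabetic. In Ly6C-high MCs the log2FC was 0.29 ± 0.31 (SE) for Cebpa, 0.24 ± 0.27 for Cebpd, 0.17 ± 0.81 for Cebpe, 0.10 ± 0.20 for Cebpg, 0.26 ± 0.24 for Cebpz and -0.41 ± 0.25 for Cebpb, each with an adjusted p of 0.999. In Ly6C-low MCs the log2FC ran from -0.21 for Cebpb to 0.31 for Cebpa, each with an adjusted p of 1.000. The difference of the subset difference between diabetic and CT mice ran from -0.20 for Cebpb to 0.32 for Cebpz, with adjusted p of 0.917 to 0.999. The test called 0.0% of all genes in each of the 3 comparisons (0 of 16486), with 739, 489 and 1084 genes at an unadjusted p under 0.05. The intervals are wide, and the 95% interval for Cebpa in Ly6C-high MCs ran from -0.42 to 1.00. Over genes, the mean of CT minus the mean of diabetic libraries had an SD of 0.272, against 0.743 for T1DM minus T2DM. Whether the values were adjusted between the sequencers is not stated, and such a step would shrink differences between diabetic and CT MCs. The lack of calls therefore cannot show that these genes are unchanged in diabetes.

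The T1DM and T2DM libraries often lay apart, which enters the spread in these tests. Each was therefore set beside the CT libraries singly, with no test. In T1DM Ly6C-high MCs 6 of 6 C/EBP genes lay outside the 2 CT values, as did 69.8% of all genes, and 5 of 6 by more than the gap between these, as did 39.7%. None of the 6 were past 2-fold, against 10.1% of all genes. In T2DM Ly6C-high MCs 4 of 6 lay outside, against 73.9% of all genes, and the same number by more than that gap, against 45.3%. Cebpe alone was past 2-fold, where 13.8% of all genes were. The gap between the CT Ly6C-high libraries was only 0.0034 for Cebpb and 0.0066 for Cebpe.

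Cebpe in Ly6C-high MCs was 2.13-fold higher than the CT mean in the T2DM library and 1.68-fold lower in the T1DM library. With 1 added on the linear scale, the T2DM difference was 0.71 (log2) and no longer past 2-fold. Cebpb was 1.70-fold lower in the T2DM Ly6C-high library, while Tmem189 on the opposite strand read 5.87 there, against 5.38 and 5.33 (CT) and 5.14 (T1DM) in the other Ly6C-high libraries. Reads shared by the pair cannot be told apart, and this was not tested.

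Of 14 neutrophil markers 11 were in the table, and 8 of the 11 were highest in the same T2DM Ly6C-high library as Cebpe among the 4 Ly6C-high libraries, while 2 were lowest there. The share of all genes placed so was not computed, and 73.9% of all genes lay outside the 2 CT values in this library. Their linear values summed to 2127 in that library, 593 to 648 in the other 3 Ly6C-high libraries and 158 to 329 in the Ly6C-low libraries. Mmp8 and Csf3r, which also stand in the lists of classical MC markers or of genes tied to C/EBP factors, made up 69.9% of the sum in the T2DM library. The granule gene Lcn2 read 8.71 and the calprotectin gene S100a8 6.90 there, against at most 3.17 and 2.49 in the other Ly6C-high libraries. The 2 genes lowest there were Retnlg, at -1.55 against 1.46 to 3.87 in the others, and Cxcr2, at 2.79 against 2.81 to 3.07, and Ltf read 0.42 against 2.71 in T1DM. The defining markers Ly6g, Elane and Camp were not in the table, and the sort took Ly6G- cells. Other lists moved in this library too. Of 9 classical MC markers 8 were highest there among the 4 Ly6C-high libraries and 0 lowest. Lowest there were 8 of 10 nonclassical MC, 9 of 10 B cell, 10 of 10 NK cell and 7 of 8 platelet markers. The part of neutrophil RNA, or of any of these other shifts, in the Cebpe value was not tested.

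In Ly6C-low MCs 0 of 6 genes were past 2-fold in T1DM, where 8.81% of all genes were, or in T2DM, where 10.8% were. Cebpa came closest in the T2DM library, 0.80 above the CT mean (1.74-fold) and 0.67 above the higher CT library, and Cebpd was 0.54 above the CT mean. The T1DM library was 0.18 below the CT mean for Cebpa and 0.14 below for Cebpd. The 8 basophil markers summed to 177 in the T2DM, 66.2 in the T1DM and 26.5 and 25.6 in the CT libraries of this subset, and the 9 classical MC markers to 1480, 1129, 1153 and 1120 in that order. In the same order the 11 neutrophil markers summed to 329, 162, 165 and 158. The 10 NK cell markers summed to 160, 907, 669 and 663, and the 8 platelet markers to 283, 975, 455 and 442. The part of any of these cells in the Cebpa and Cebpd values was not tested.

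Genes tied to the C/EBP factors were then read from 4 lists, by their role, which were chosen with earlier results of these data known. Over 8 libraries the median pooled log2FC of all genes was -0.08. Of 14 measured regulators and partners, 1 was higher and 4 were lower in Ly6C-high MCs, against 5.37% and 6.76% of all genes, with a median of -0.59. Fos, an AP-1 subunit, was higher by 2.62 ± 0.19 (SE). The lower ones were Myc at -3.64 ± 0.18, Trib2, a pseudokinase that directs C/EBPα to degradation, at -2.70 ± 0.51, Klf5 at -2.44 ± 0.52 and the AP-1 subunit Jun at -1.50 ± 0.17. Spi1, which encodes PU.1, the partner of C/EBPα in myeloid genes, was higher by 0.98 ± 0.07 with an adjusted p of 2.11e-05 in limma, just under the 2-fold limit, and was called in CT MCs at 1.06 ± 0.04.

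Of 10 measured myeloid genes linked to C/EBPα, 8 were higher and 0 lower in Ly6C-high MCs, with a median of 1.54. Most of the 10, among them Csf3r, Csf2ra, Il6ra and Cd14, also stand among the C/EBPα targets that the paper listed from subset differences in its own data. The count is therefore no independent evidence on C/EBPα. Csf3r, the G-CSF receptor, read 8.84 and 8.83 (CT), 8.66 (T1DM) and 9.36 (T2DM) in Ly6C-high MCs, and 7.01 and 6.86 (CT), 7.05 (T1DM) and 7.51 (T2DM) in Ly6C-low MCs. It was higher in Ly6C-high MCs by 1.81 ± 0.09 (SE), and in both subsets its T2DM library was the highest. Csf2ra, the alpha chain of the GM-CSF receptor, was higher by 1.03 ± 0.11, Prtn3, which encodes proteinase 3, by 3.21 ± 0.43, and the IgG receptor Fcgr1 by 2.93 ± 0.20. Lyz2, which encodes lysozyme, was higher by 2.60 ± 0.07, the endotoxin co-receptor Cd14 by 1.87 ± 0.20 and the IL-6 receptor Il6ra by 1.27 ± 0.07. The 2 genes not called were Csf1r, the M-CSF receptor, at 0.72 ± 0.09, and Mpo at 1.14 ± 0.39.

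Of 9 measured granule genes linked to C/EBPε, 3 were higher and 0 lower in Ly6C-high MCs, with a median of 1.20. These were Cd177 at 5.89 ± 0.24 (SE), Chil3 at 5.74 ± 0.17 and the collagenase Mmp8 at 5.56 ± 0.21, of which Chil3 and Mmp8 also stand in the list of classical MC markers. Ltf, Lcn2, Ngp, Mmp9, S100a8 and S100a9 were not called. In Ly6C-high MCs 9 of 9 had a positive log2FC of diabetic against CT libraries, with a median of 2.11 against 0.02 for all genes, but 0 of 9 were called. Their linear values summed to 5223 in the T2DM, 1111 in the T1DM and 1747 and 1761 in the CT Ly6C-high libraries. Chil3 and Mmp8 made up 78.1% of the sum in T2DM and 69.1% in T1DM. In the T2DM library 9 of 9 lay above both CT Ly6C-high libraries, as Cebpe did. In the T1DM library, where Cebpe lay below both, 6 of 9 lay above both and 2, Chil3 and Mmp8, below both. Of all genes, 73.9% in T2DM and 69.8% in T1DM lay outside the 2 CT values on either side. The share of all genes above both was not computed. Of the 9 classical MC markers 8 lay above both in T2DM and 0 below, and in T1DM 3 lay above and 6 below. A tie of the granule gene counts to Cebpe was not tested. Chil3 alone read 11.67 in the T2DM, 9.32 in the T1DM and 10.37 and 10.39 in the CT Ly6C-high libraries.

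Of 10 measured inflammatory genes linked to C/EBPβ and C/EBPδ, 1 was higher and 2 were lower in Ly6C-high MCs, with a median of -0.46. Il1rn, the interleukin-1 receptor antagonist, was higher by 1.92 ± 0.18 (SE), and the chemokine gene Ccl3 and the prostaglandin synthase gene Ptgs2 were lower, at -2.71 ± 0.50 and -2.27 ± 0.49. These 2 lower calls rest on low values in Ly6C-high MCs. Ptgs2 read -2.11 in both CT libraries and -2.54 in T2DM, and Ccl3 read -0.34 and 2.13 in CT. Klf5 among the regulators was likewise low there, at -2.00 and -0.45 in CT. Between diabetic and CT MCs 0 genes of these 4 lists were called in either subset.

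**Figure D4:**
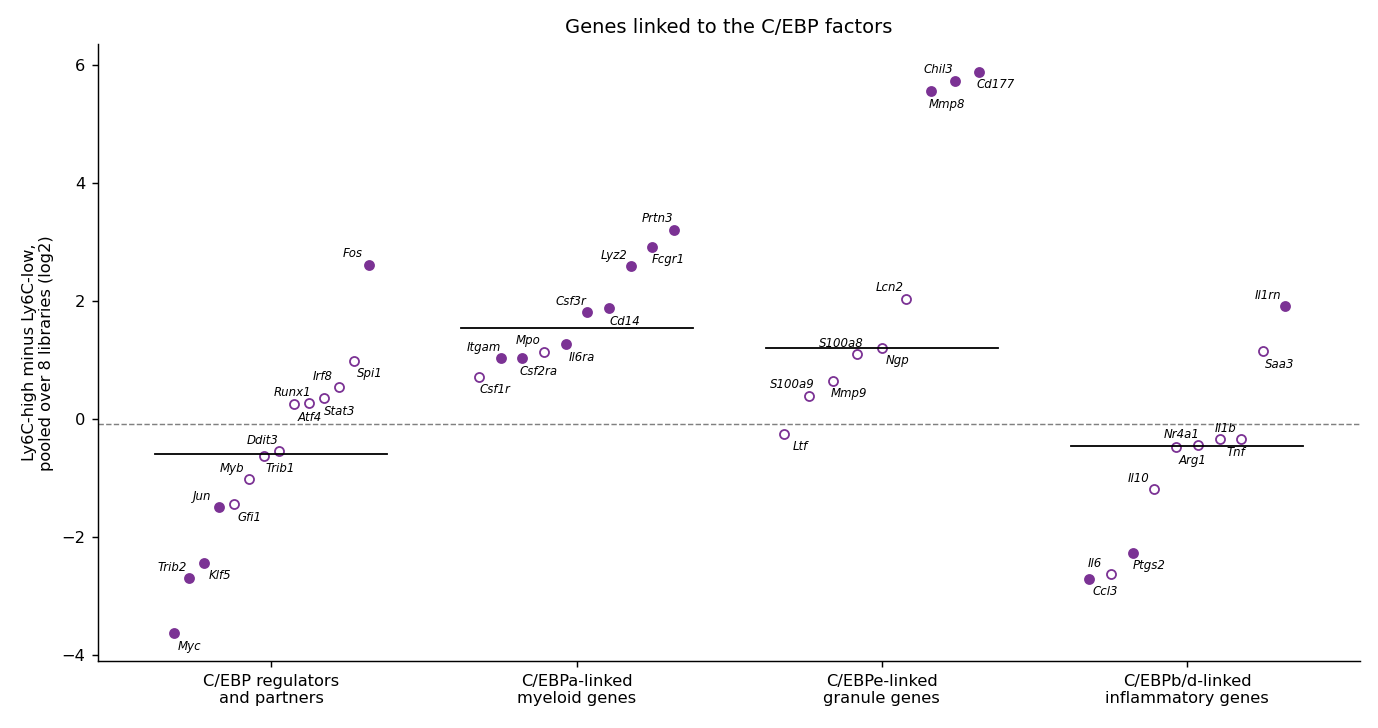
Pooled Ly6C-high minus Ly6C-low difference over 8 libraries (y axis, log2) of each measured gene in 4 lists of genes tied to the C/EBP factors (x axis), with filled circles for called genes, a black line at each list's median and a dashed line at the median of all genes. The C/EBPα list has 8 of 10 genes called as higher, and in the C/EBPε list Mmp8, Chil3 and Cd177 stand above 5.

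The genes most like each C/EBP gene were sought for the 3 with a range of at least 2 over the 8 libraries, as the smallest root mean square difference after each gene was centred on its own mean. Among 12527 genes, those nearest to Cebpa were P2ry1, an ADP receptor gene, at 0.143, Fam129b at 0.166 and Arrdc4 at 0.185. Nearest to Cebpd were Alox5ap, which encodes the activating protein of 5-lipoxygenase, at 0.126, Eif4e3 at 0.129 and Mpeg1, a perforin-like gene of macrophages, at 0.133. Nearest to Cebpe, at larger distances, were the amino acid transporter gene Slc7a8 at 0.332, Rwdd2a at 0.333 and Zfyve28 at 0.341. Between the C/EBP genes themselves the distance was 0.279 for Cebpa and Cebpd, 0.546 for Cebpd and Cebpe and 0.734 for Cebpa and Cebpe. These distances describe 8 libraries in which the subset makes up most of the pattern.

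**Figure D5:**
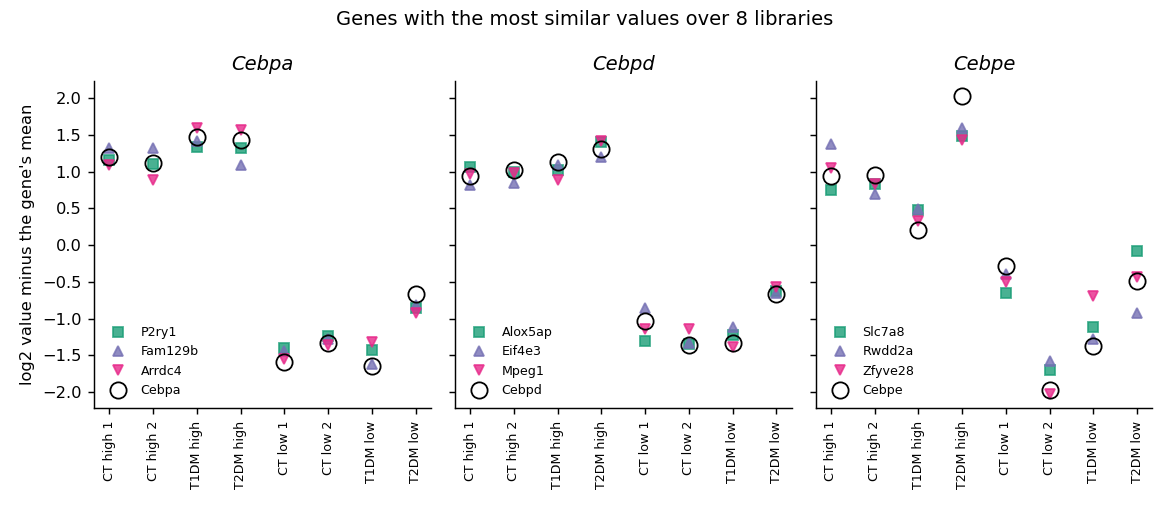
Log2 value minus the gene's own mean (y axis) in each of the 8 libraries (x axis) for Cebpa, Cebpd and Cebpe (open circles) and the 3 genes nearest to each (coloured symbols). The nearest genes of Cebpa and Cebpd lie close to them in both subsets, and those of Cebpe lie below it in the T2DM Ly6C-high library.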

How the data were processed

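RNA-Seq of sorted blood MCs was analysed from 8 libraries, 2 for each CT subset and 1 for each T1DM and T2DM subset, grouped by the library titles. Per the labels, the authors quantified transcripts in Kallisto 0.45 (build mm10), made gene values of them in tximport 1.12.3 under R 3.6.1, and deposited log2 expression values for 16486 rows. The scaling between libraries, any filter, any adjustment between sequencers and the use of strand are not given in the sources used here. The deposited values ran from -4.05 to 15.64, and 2 raised to them summed to 838696 to 1090019 per library. Over genes, the mean of CT minus the mean of diabetic libraries had an SD of 0.272, against 0.743 for T1DM minus T2DM. The table has no columns of other samples.

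limma (version 3.58.1, lmFit and eBayes with trend) in R 4.3.3 was fitted on all rows, with Benjamini-Hochberg adjustment over 16486 genes and calls at an adjusted p under 0.01 and an absolute log2FC above 1. The fits were CT subsets (4 libraries), pooled subsets (8 libraries, mouse group as covariate) and diabetic against CT by subset (8 libraries, shared spread). Comparisons of single libraries have no test. The fit was tested on simulated data. Python 3.11.15 was used for all else. Shared 31-base sequences came from GENCODE M21 transcripts.

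The C/EBP genes and the lists (C/EBP regulators and partners, genes linked to C/EBPα, to C/EBPε and to C/EBPβ or C/EBPδ, and markers of classical and nonclassical MCs, neutrophils, eosinophils, basophils, B, T and NK cells and platelets) were chosen with earlier results of these data known. Named list genes are those called in the CT or pooled subset test, up to 6 per list by absolute pooled log2FC. Others were named after their values were seen. Likeness used genes with a mean of at least 1. The alternatives were a low-value filter (mean of at least 1, 12527 genes), 1 added on the linear scale, quantile normalization and eBayes without trend. Further ones were an adjusted p limit of 0.05, leaving out each CT library or diabetic model, and a replicate block, run on CT subsets only. Same-numbered CT libraries did not deviate together (r = 0.0089 across genes), so numbers were not taken as pairs.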

Additional observations from a re-analysis of the deposited data

Results flagged for a closer look

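In 4 cases 2 mouse groups lay on opposite sides of a reference, and each rests on 1 library per diabetic model, so the difference was not tested. Whether the values were adjusted between the sequencers, which would bear on such placements, is not stated. Cebpa in Ly6C-low MCs was 0.98 higher (log2) in the T2DM than in the T1DM library, with T2DM above and T1DM below both CT libraries. Cebpe in Ly6C-high MCs was 1.83 higher in the T2DM than in the T1DM library, again on opposite sides of the CT libraries. Cebpz in Ly6C-low MCs was lower in the T2DM than in the T1DM library, with a difference of -0.57. Cebpz also had a subset difference of 0.05 in T2DM against -0.42 in CT mice, which is 0.47 apart.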

How the results depend on the processing

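The subset calls in CT MCs depended on the processing. Of the 2 C/EBP genes called, 0 were left without the eBayes trend, with the replicate number as a block and when any 1 CT library was left out (0 to 0). Of all genes, 581 were called, and 1936 at an adjusted p limit of 0.05, 1089 with the low-value filter, 0 without the trend (5810 at an unadjusted p under 0.05), 0 with the replicate block (5513 unadjusted) and 0 without any 1 CT library (4651 to 5241 unadjusted, the lone library being assumed to vary like the others). The block was run on the CT subsets only, where no other C/EBP gene had a call to lose. The difference of the subset difference between diabetic and CT mice was called in 0 genes and in 3 at a limit of 0.05.

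Many diabetic differences, none of them called, changed sign when libraries were left out or values were rescaled. Without T2DM, the diabetic log2FC was -0.75 for Cebpe in Ly6C-high MCs, and in Ly6C-low MCs -0.18 for Cebpa, -0.14 for Cebpd, -0.24 for Cebpe and 0.23 for Cebpz. Without T1DM, that of Cebpg was -0.090 in Ly6C-high and -0.12 in the other subset, and -0.011 in the latter with quantile normalization. Leaving out 1 CT library gave, in Ly6C-low MCs, -0.65 to 1.04 for Cebpe, -0.14 to 0.20 for Cebpg and -0.15 to 0.038 for Cebpz. The difference of the subset differences was 0.48 for Cebpa and 0.10 for Cebpb without T2DM, -0.21 for Cebpd and 0.45 for Cebpe without T1DM, -0.012 for Cebpd with quantile normalization and 0.15 for Cebpe with 1 added. Without 1 CT library it ran from -0.15 to 0.11 for Cebpa, -0.12 to 0.20 for Cebpd, -0.87 to 0.83 for Cebpe and -0.10 to 0.25 for Cebpg. The causes of these reversals were not tested. In all, 24 of the C/EBP values with a test reversed, 19 lost a call and 276 kept direction and call. Part of the 276 could not have come out otherwise, so they are no count of stable results. A looser limit on the adjusted p leaves the log2FC as it is and cannot remove a call. Leaving out a Ly6C-low CT library cannot change the diabetic log2FC in Ly6C-high MCs, and the reverse also holds. Of the C/EBP values without a test 13 moved and 107 did not. Cebpe was removed by the low-value filter.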

Other observations

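The lists of cell markers differed in how many genes were called between the subsets. Of 5 eosinophil markers in the table, Il5ra was called as lower in Ly6C-high MCs (pooled log2FC -3.71 ± 0.19, SE), and Prg2, Prg3 and Epx were not in the table. Of 8 basophil markers only Ms4a2 was called, as lower (-3.24 ± 0.51). Of 10 T cell markers 1 was called as lower, and of 8 platelet markers 0 were called, with 0 also at an unadjusted p under 0.05 in limma. Of 10 B cell markers 10 and of 10 NK cell markers 9 were called as lower in Ly6C-high MCs over 8 libraries. Of 11 neutrophil markers 3 were called as higher, which were Mmp8, Prtn3 and Csf3r, all of them also in the lists tied to the C/EBP factors. Between diabetic and CT MCs 0 genes of any of these lists were called in either subset, with median log2FC in Ly6C-low MCs of 2.25 for basophil and 1.06 for eosinophil markers, each against 0.00 for all genes.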
